A study of Mus musculus with 26 samples.

Results

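Neural stem cells that over-expressed MYBQKI6 were compared with neural stem cells that over-expressed MYBtr, gene by gene and within each of 3 pools. The comparison rests on 6 of the 26 arrays of the series, which were taken by their labels: 3 MYBQKI6 arrays and 3 MYBtr arrays, 1 of each from pools 1, 2 and 3. The cells were neural stem cells from C57BL6 wild-type mouse embryos at E14.5, and in all of them a lentivirus delivered the transgene. The groups that enter are MYBQKI6, MYBtr, MYBQKI5 and QKItr, with 3 arrays each, and eGFP, a fluorescent protein used as control, with 6 arrays, 2 for each pool. The MYBQKI5, QKItr and eGFP arrays share the fit, and MYBQKI5 and eGFP served to choose genes that answer to a MYB construct. No group lacked the virus, the labels do not give the promoter that drives the transgenes or the species of their sequence, and nothing in them says that the pools were separate animals or cultures. The p-values therefore speak for these pools only. With pool as a block in the fit, they rest on how much the differences between groups vary from pool to pool.

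MYB is a transcription factor that binds DNA through its N-terminal repeats and activates genes of growth and survival, and loss of its C-terminal end is known to make it a stronger activator. QKI, whose mouse gene is Qk, is a STAR family protein that binds RNA and acts on splicing, export and stability of RNAs, in the brain above all in glia. Its splice forms differ in their C-terminal tails: the QKI5 tail carries a nuclear localisation signal, while QKI6 is found in nucleus and cytoplasm. In the MYB-QKI fusion of angiocentric glioma, a brain tumour of children, a shortened MYB is joined to the end of QKI. In the published description of these constructs tr stands for truncated, so the comparison asks what a QKI6 tail adds to or takes from a truncated MYB.

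Promoters of 3 genes are shown first, to give the sequence context of genes described at length below. Zmynd10 and Kit were among the 10 genes most raised by MYBQKI5 and were also called over eGFP with MYBQKI6 and MYBtr, and Maoa had the smallest p in the comparison of MYBQKI6 with MYBtr. The sequences run from 250 bases before to 50 bases after the start of the gene, on the plus strand, from RefSeq (GRCm38.p6), and capitals mark the letters of a MYB motif, CAACNG or TAACNG, searched on both strands. No match of these motifs in the 3 genes overlapped another.
Zmynd10, chr9:107547054-107547353: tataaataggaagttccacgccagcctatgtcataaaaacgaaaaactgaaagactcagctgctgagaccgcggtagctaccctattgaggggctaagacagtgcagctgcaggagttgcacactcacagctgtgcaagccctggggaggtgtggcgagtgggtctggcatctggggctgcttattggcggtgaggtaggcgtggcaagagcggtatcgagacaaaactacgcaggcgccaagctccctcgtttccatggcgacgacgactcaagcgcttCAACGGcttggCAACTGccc
Kit, chr5:75574737-75575036: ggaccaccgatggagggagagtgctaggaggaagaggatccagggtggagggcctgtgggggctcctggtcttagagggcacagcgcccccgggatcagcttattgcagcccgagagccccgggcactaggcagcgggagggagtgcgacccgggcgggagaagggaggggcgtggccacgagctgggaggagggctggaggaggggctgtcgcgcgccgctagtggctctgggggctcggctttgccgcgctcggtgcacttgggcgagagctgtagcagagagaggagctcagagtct
Maoa, chrX:16619448-16619747: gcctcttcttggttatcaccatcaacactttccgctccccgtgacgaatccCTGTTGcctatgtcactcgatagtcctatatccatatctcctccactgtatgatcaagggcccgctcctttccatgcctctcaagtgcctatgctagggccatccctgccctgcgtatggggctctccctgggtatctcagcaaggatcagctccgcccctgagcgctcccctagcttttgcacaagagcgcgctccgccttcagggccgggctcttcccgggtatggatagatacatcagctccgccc
The window of Zmynd10, which encodes a protein needed to assemble motile cilia, held 2 matches to CAACNG, 30 and 41 bases after the start. The window of Kit, a receptor tyrosine kinase that is a described MYB target, held 0 matches. It was taken at the more upstream of the 2 promoters listed for Kit. The windows of Prune2 and Cdk6, which are described below and not shown, also held 0 matches each. The window of Maoa, which encodes the monoamine oxidase that breaks down serotonin and noradrenaline, held 1 match on the reverse strand, at -199 bases from the start. Of all 27025 promoters of this length, 49.6% held a match, against 47.6% of the 229 promoters found for genes higher with MYBQKI5 and 36.5% of the 255 found for genes lower with MYBQKI5. A match describes letters and no binding was measured.

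Myb signal was above eGFP with both constructs. Values here and below are mean log2 signals of a gene's probe sets, as deposited. Myb was at 7.10, 7.89 and 7.38 in the MYBQKI6 arrays of pools 1 to 3, against 7.12, 7.36 and 7.23 in the MYBtr arrays, with an eGFP mean of 4.62. The groups overlapped, and the difference was 0.22 on the log2 scale (95% interval -0.22 to 0.66; limma, adjusted p = 0.93). Of the 18 probe sets of Myb, 7 were higher than eGFP with MYBQKI6 and 7 with MYBtr at an adjusted p under 0.05 over all probe sets, where 0.249% and 0.402% of all 269751 probe sets were called higher. Between the MYB constructs, 0 of the 18 passed, and 13 were higher and 5 lower with MYBQKI6. The brightest, probe set 17239679, was at 12.82, 12.39 and 11.91 with MYBQKI6, against 12.68, 12.26 and 12.18 with MYBtr. The 3 with the smallest p were 17239665 (difference -0.68), 17232000 (0.49) and 17239672 (0.73), with unadjusted p-values of 0.10 to 0.12. Myb signal thus did not separate the groups. A transgene's Myb cannot be told apart from the cells' own in these values.

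Qk was the gene in which the constructs differ by design. It was at 10.49, 10.79 and 10.74 with MYBQKI6, against 10.39, 10.48 and 10.65 with MYBtr, and at 10.78 on average with eGFP. MYBQKI6 was higher within every pool, but the groups overlapped and the difference of 0.17 (95% interval -0.18 to 0.52) did not pass the test (limma, adjusted p = 0.93). Of its 15 probe sets, 12 were higher and 3 lower with MYBQKI6, with differences of -0.05 to 0.54, and 0 passed. Probe set 17340765 was at 12.24, 12.20 and 12.07 with MYBQKI6, against 11.41, 11.68 and 11.82 with MYBtr, so that the groups did not overlap (difference 0.53, 95% interval 0.10 to 0.97, unadjusted p = 0.020, adjusted p = 0.78). Probe set 17340767 was at 10.31, 10.54 and 10.17 with MYBQKI6, against 9.72, 9.91 and 10.10 with MYBtr, also without overlap (difference 0.43, adjusted p = 0.83). The next smallest p was that of probe set 17340771 (difference 0.54, unadjusted p = 0.19), whose groups overlapped. Others were flat, such as 17340760 (0.03) and 17340768 (0.02). Which part of the transcript a probe set reads was not used here, and a transgene's QKI tail cannot be told apart from the cells' own Qk in these values.

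**Figure D1:**
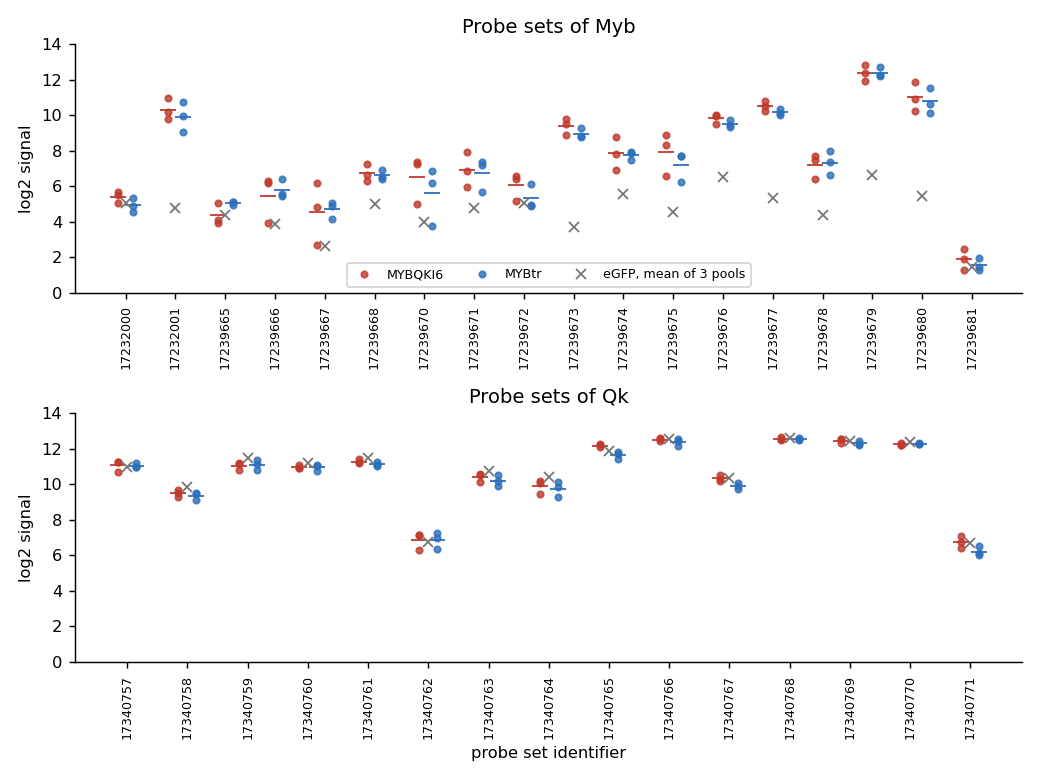
Log2 signal of the 18 probe sets of Myb (top) and the 15 of Qk (bottom); red and blue points are the 3 MYBQKI6 and the 3 MYBtr arrays, bars their means, and crosses the eGFP mean. Several Myb probe sets stand far above eGFP with both constructs, while red and blue points overlap for most probe sets of either gene.

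Sox2 and Nes, markers of the labelled cell type, were level between the constructs, and further markers follow below. Sox2, a transcription factor of neural stem cells, was at 10.62 ± 0.09 with MYBQKI6 and 10.56 ± 0.17 with MYBtr (SD, n = 3 each). Nes, an intermediate filament of neural progenitors, was at 8.18 ± 0.55 with MYBQKI6 and 8.25 ± 0.45 with MYBtr, and was called below eGFP with MYBQKI6 (-1.11, adjusted p = 0.0031) and with MYBtr (-1.04, adjusted p = 0.0032). Levels of different genes are not compared here. Taken per array, the mean over 12 microglia and immune genes was 4.35 to 4.44 with MYBQKI6 and 4.17 to 4.28 with MYBtr, and that over 14 vascular and fibroblast genes 4.51 to 4.54 with MYBQKI6 and 4.47 to 4.56 with MYBtr. Array medians of the whole pool set lay between 5.61 and 5.74.

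No gene passed the test between the constructs. Of 23102 genes tested, 0 were called in MYBQKI6 against MYBtr at an adjusted p under 0.05 (limma with pool as a block, 0% called), and the smallest adjusted p was 0.43. Without the pool block the count was also 0, and single probe sets gave 0 of 269751 as well, with a smallest adjusted p of 0.087. At an unadjusted p under 0.05 there were 1436 genes, or 6.22% of those tested, of which 725 were higher and 711 lower with MYBQKI6. The same fit called 1023 genes in MYBQKI6 against eGFP (4.43%), of which 557 were higher (2.41%) and 466 lower (2.02%), and 1384 in MYBtr against eGFP (5.99%), of which 772 were higher (3.34%) and 612 lower (2.65%). These share their eGFP arrays with each other and their construct arrays with the comparison between constructs.

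The difference between constructs was small for most genes. Its median over all genes was 0.002, with quartiles of -0.10 and 0.11. The 95% interval of a gene's difference reached a median of 0.30 to either side of it. For 22797 genes (98.7%) it lay wholly within 1 log2 unit (2-fold) of 0. These intervals bound most differences below 2-fold, which does not show that the constructs act alike. The difference had the same direction in all 3 pools for 7126 genes (30.8%), 3581 of them higher and 3545 lower. Between pools, the difference of MYBQKI6 and MYBtr had correlations across genes of 0.10 (pools 1 and 2), 0.05 (pools 1 and 3) and 0.16 (pools 2 and 3), where MYBQKI6 minus eGFP had 0.54, 0.37 and 0.48. These are descriptions across genes, which are not independent.

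**Figure D2:**
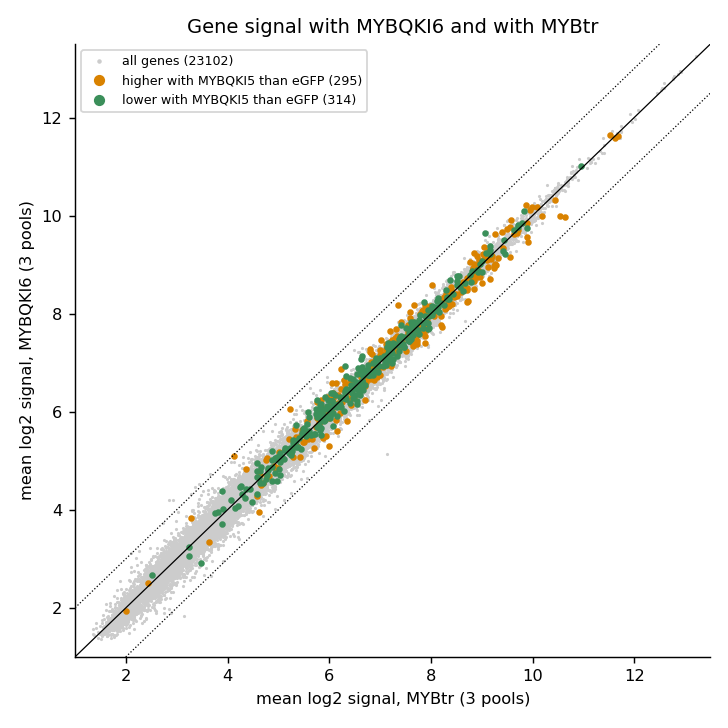
Mean log2 signal of each of 23102 genes with MYBQKI6 (vertical axis) against MYBtr (horizontal axis), over 3 pools each; the full line marks equal signal and dotted lines 1 log2 unit. Orange and green points, the 295 genes higher and 314 lower with MYBQKI5 than with eGFP, lie along the full line.

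The genes nearest to a difference are described next, 10 in each direction, and none passed. They were taken by smallest p among named genes with 1 direction in all 3 pools, so that their separation is a description. Among those higher with MYBQKI6, Zdhhc14, an enzyme that adds palmitate to proteins, was at 7.32, 7.50 and 7.07 with MYBQKI6, against 6.56, 6.74 and 6.65 with MYBtr. Every MYBQKI6 array lay above every MYBtr array, and the eGFP mean of 6.90 lay between (difference 0.65, 95% interval 0.40 to 0.89; limma, adjusted p = 0.43). Rnf43, a membrane ubiquitin ligase that removes Wnt receptors, was at 5.71, 5.67 and 5.39 with MYBQKI6, against 5.40, 4.96 and 4.69 with MYBtr. Its groups overlapped, and the difference of 0.57 was 0.05 by its brightest probe set. It was called over eGFP with MYBQKI6 (0.57, adjusted p = 0.019) and differed from it by -0.004 with MYBtr (adjusted p = 0.99). Il11ra1, a receptor for interleukin 11, was at 5.76, 5.88 and 5.61 with MYBQKI6, against 4.90, 5.33 and 5.09 with MYBtr. It too showed no overlap, at a difference of 0.64 (adjusted p = 0.51).

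Foxb1 and Bhmt were also without overlap between the groups. Foxb1, a forkhead factor of the developing diencephalon, was at 4.82, 5.04 and 4.89 with MYBQKI6, against 3.89, 4.57 and 4.24 with MYBtr (difference 0.68). Bhmt, a methionine-synthesis enzyme of the liver, was at 4.26, 4.26 and 4.71 with MYBQKI6, against 3.79, 3.58 and 3.81 with MYBtr (difference 0.68). Lta (0.58), Plek2 (0.53), Vmn2r43 (0.82), Iltifb (0.73) and Ceacam12 (0.56) completed the 10. Iltifb, whose difference was 0 by the median of its probe sets, and Ceacam12 lay below 3.79, the 25th percentile of all gene means. Vmn2r43, of the vomeronasal receptor family whose members are alike in sequence, rested on 1 probe set. Of the 10, 9 had groups that did not overlap, where 1618 of all genes (7%) had none, and the choice of members used that contrast. The eGFP mean lay between the construct means in all 10.

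Among the 10 lower with MYBQKI6, Maoa came first. It was at 7.87, 7.65 and 8.05 with MYBQKI6, against 8.88, 8.54 and 8.57 with MYBtr, and at 7.92 on average with eGFP. The MYBtr arrays alone stood high: MYBQKI6 was 1.75-fold lower (difference -0.81, 95% interval -1.09 to -0.53, adjusted p = 0.43), and all 14 probe sets of Maoa pointed that way. These probe sets were read on the same arrays, their mean chose Maoa, and they are not replicates. Against eGFP, Maoa was called with MYBtr (0.74, adjusted p = 0.0043) and was not called with MYBQKI6 (-0.07, adjusted p = 0.91). Dnajc12, a co-chaperone of the aromatic amino acid hydroxylases, was at 5.99, 6.05 and 6.31 with MYBQKI6, against 6.61, 6.99 and 7.26 with MYBtr, and at 6.04 with eGFP. MYBQKI6 arrays thus lay at the eGFP level and below all MYBtr arrays (difference -0.84, 95% interval -1.24 to -0.44, adjusted p = 0.54).

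In Mc5r and Clgn both constructs stood above eGFP, MYBtr further than MYBQKI6. Clgn, a chaperone of the endoplasmic reticulum known from the testis, was at 5.50, 5.53 and 4.89 with MYBQKI6, against 6.17, 6.19 and 5.61 with MYBtr, and at 4.34 with eGFP. It was called over eGFP with MYBQKI6 (0.97, adjusted p = 0.0018) and with MYBtr (1.65, adjusted p = 3.2e-05), and the difference of -0.68 between them had an adjusted p of 0.51. Mc5r, a melanocortin receptor, was at 4.28, 4.69 and 4.99 with MYBQKI6, against 5.51, 5.85 and 5.35 with MYBtr, and at 3.91 with eGFP (difference -0.91, adjusted p = 0.51). Rgs6 (-0.62, and -0.19 by its brightest probe set), a brake on G protein signalling, Tbx22 (-0.58, but 0.01 by its brightest probe set), a T-box factor of the palate, Fsip2l (-0.56), Olfr1219 (-0.67), Vmn2r75 (-0.62) and Btbd35f16 (-0.61) completed the 10, the last 3 of them dim. All 10 were called higher than eGFP with MYBtr and 2 with MYBQKI6, against 3.34% and 2.41% of all genes. The choice of genes used the MYBtr and the MYBQKI6 arrays, and each of these comparisons uses 1 of the 2 groups, so no count here is evidence of its own.

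**Figure D3:**
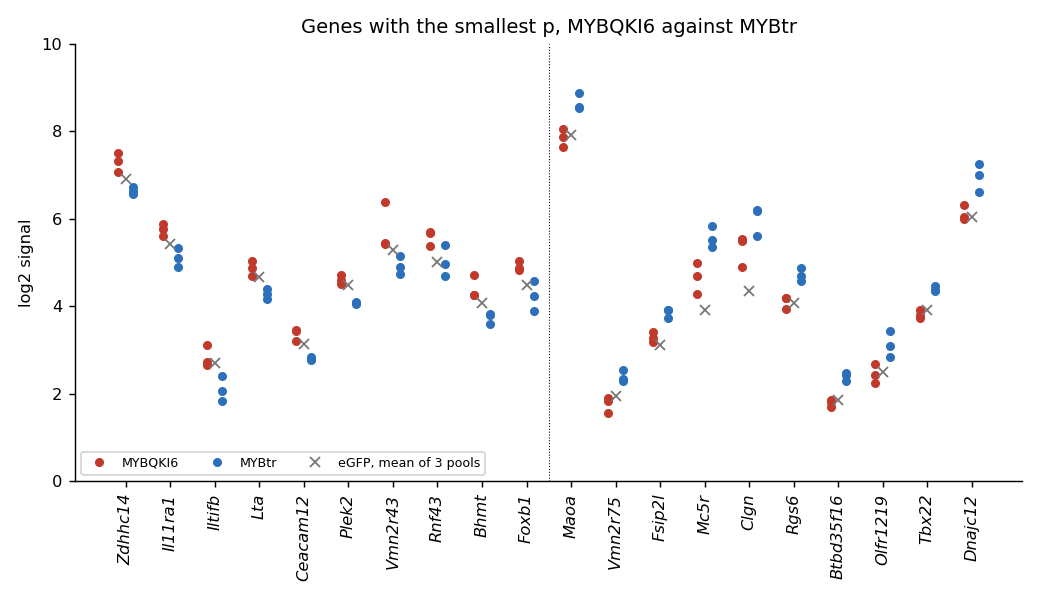
Log2 signal of the 10 genes higher (left of the dotted line) and the 10 lower (right) with the smallest p; red and blue points are the 3 MYBQKI6 and the 3 MYBtr arrays, crosses the eGFP mean. Red and blue points are apart in 19 of 20 genes, and for Maoa and Dnajc12 the cross lies among the red points.

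Large differences of gene means were few, though single probe sets, picked by smallest p, differed by more. Probe set 17279240 of Tdrd9 differed by 2.70, with a mean of 4.70 with MYBQKI6 and 2.005 with MYBtr. Probe set 17498984 of Col4a2 differed by -2.64, with means of 1.55 and 4.19, so that 1 group was dim in each. Neither passed (limma, adjusted p = 0.087 for each). A mean difference over 1 log2 unit was found in 10 genes, 7 higher and 3 lower with MYBQKI6, with adjusted p-values of 0.54 to 0.86. Of these, 6 have clone or predicted names, and the others were Trim34b (1.36), Zfp980 (1.10), Tagap1 (-1.04) and Pcdhga12 (-1.29). Tagap1 and Pcdhga12 lay below 3.79, the 25th percentile of all gene means, with both constructs, and Trim34b and Zfp980 with MYBtr. The widest gap was in a transcript named only by its clone, C230072F16Rik, picked out here after its values were seen. It was at 4.72, 6.20 and 4.52 with MYBQKI6, against 8.05, 7.81 and 5.57 with MYBtr, and at 3.00 with eGFP. It was called over eGFP with MYBQKI6 (2.14, adjusted p = 0.019) and with MYBtr (4.14, adjusted p = 3e-04), while MYBQKI6 was 3.99-fold lower than MYBtr (95% interval of the log2 difference -3.01 to -0.98), at an adjusted p of 0.54.

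Genes that answer to a MYB construct were then followed as a group. They were chosen by the difference of MYBQKI5 from eGFP, whose arrays the difference between MYBQKI6 and MYBtr does not use. The choice is not fully independent, because its p-values came from the shared fit. Their variance drew on the MYBQKI6 and MYBtr arrays too, and also set the widths of the intervals below. Of 609 genes called (2.64% of all), 295 were higher with MYBQKI5 than with eGFP (1.28%) and 314 lower (1.36%). The 295 were above eGFP by a median of 0.96 with MYBQKI6 and 0.93 with MYBtr, and 264 and 265 of them were called. Of all genes, 4.43% and 5.99% were called. Between the constructs their median difference was -0.001, with quartiles of -0.15 and 0.15, beside 0.002 for all genes. With MYBQKI6, 146 were higher and 149 lower than with MYBtr, and 0 of the 295 were called (0% of all genes called). Pool medians were -0.09, 0.05 and 0.02. The interval of the difference lay within 1 log2 unit of 0 for 276 of the 295, a lower share than the 98.7% of all genes.

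The genes that MYBQKI5 lowered gave a like picture. The 314 were below eGFP by a median of -0.75 with MYBQKI6 and -0.75 with MYBtr. Of them, 261 and 269 were called, where 4.43% and 5.99% of all genes were. Their median difference between constructs was 0.03 (quartiles -0.08 and 0.13), with 174 higher and 140 lower with MYBQKI6 and 0 called. The interval lay within 1 log2 unit of 0 for 308 of the 314 genes, beside 98.7% of all genes. In the 61 of them that MYBQKI5 lowered by more than 1 log2 unit, the median was 0.08 and 41 were higher with MYBQKI6. In the 110 that MYBQKI5 raised by more than 1 unit it was 0.05, with 64 higher. The MYBQKI6 and MYBtr values against eGFP share the eGFP arrays with each other and with the choice of genes.

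Kit, Cdk6, Prune2 and Zmynd10 carried the MYB response with both constructs. These genes, like Prelp, Fras1 and Fbxo32 below, were named as MYB-responsive with earlier results of these data known. Their calls against eGFP are therefore no evidence of their own. Kit was at 8.24, 8.64 and 8.43 with MYBQKI6, against 8.38, 8.66 and 8.75 with MYBtr, and at 5.64 with eGFP. It was called over eGFP with MYBQKI6 (2.80, adjusted p = 3.4e-06) and with MYBtr (2.96, adjusted p = 1.6e-06), and between the constructs the groups overlapped (-0.16, 95% interval -0.56 to 0.23, adjusted p = 0.95; 0.04 by the brightest probe set). Cdk6, the G1 kinase, was at 9.11, 9.30 and 9.07 with MYBQKI6, against 9.74, 9.61 and 9.31 with MYBtr, and at 7.28 with eGFP. Here every MYBQKI6 array lay below every MYBtr array, and the difference of -0.40 (95% interval -0.82 to 0.03) did not pass (adjusted p = 0.82), and was -0.20 by the brightest probe set. Zmynd10, whose promoter is shown above, was at 7.57, 8.10 and 7.67 with MYBQKI6, against 8.19, 8.40 and 8.04 with MYBtr, and at 4.69 with eGFP (difference -0.43, 95% interval -1.01 to 0.15). Prune2, a large BCH domain protein, was at 8.83, 8.97 and 8.30 with MYBQKI6, against 9.56, 9.30 and 8.61 with MYBtr, and at 5.10 with eGFP (difference -0.46, 95% interval -0.93 to 0.01). In both, MYBQKI6 was the lower within each pool, and the groups overlapped across pools.

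Prelp, Fras1 and Fn1, genes of the extracellular matrix, were also lower with MYBQKI6 in each pool. Frem1, of the same list, was higher in each pool (difference 0.35, 95% interval 0.108 to 0.595, adjusted p = 0.65). Its mean was 3.84 with MYBQKI6 and 3.48 with MYBtr. Of the 26 matrix and adhesion genes, 9 were higher and 17 lower with MYBQKI6. Prelp, a leucine-rich proteoglycan of basement membranes, was at 10.36, 9.78 and 9.80 with MYBQKI6, against 11.05, 10.53 and 10.32 with MYBtr, and at 7.55 with eGFP (difference -0.66, 95% interval -1.29 to -0.02, adjusted p = 0.79). Fras1, another basement membrane gene, differed by -0.48 (95% interval -0.97 to 0.01), and Fn1, fibronectin, by -0.55 (95% interval -1.35 to 0.24), with all 41 of its probe sets lower with MYBQKI6. Single arrays weighed on Fn1: its difference was -0.10 without the MYBtr array of pool 1, -0.23 without the MYBQKI6 array of pool 3 and -0.93 without the MYBtr array of pool 3. Fn1 was at 9.68, 10.61 and 9.67 with MYBQKI6, against 10.49, 10.99 and 10.14 with MYBtr, so the groups overlapped. Cdk6, Prelp and Fras1 were not among the 10 genes most raised by MYBQKI5. Of those 10, Igtp (0.39) and Irgm2 (0.29), interferon-inducible GTPases, Dgkg (0.36), a diacylglycerol kinase, and Kif26b (0.06) were higher with MYBQKI6, none called. Gper1 was lower (-0.19). The level of Irgm2 differed more between pools than between constructs: it was at 9.59, 10.15 and 7.43 with MYBQKI6, against 9.73, 9.69 and 6.89 with MYBtr.

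The most lowered genes included Fbxo32, a ubiquitin ligase of muscle wasting. It was at 7.40, 6.72 and 7.26 with MYBQKI6, against 6.74, 6.10 and 7.10 with MYBtr, and at 9.04 with eGFP (difference 0.48, 95% interval 0.01 to 0.95, adjusted p = 0.79). Gjc3, a gap junction protein of glia, was at 10.02, 8.91 and 10.02 with MYBQKI6, against 9.34, 8.42 and 9.45 with MYBtr, and at 10.93 with eGFP (difference 0.58, 95% interval 0.15 to 1.01, adjusted p = 0.67). Both were called below eGFP with each construct, were higher with MYBQKI6 in each pool, and had groups that overlapped. Of the other 8 most lowered genes, Xylt1 (0.35), Ttyh1 (0.32), Agt (0.20), Ptprv (0.15) and Sox8 (0.13) were higher with MYBQKI6, and Rev3l (-0.06), Kcnma1 (-0.06) and Igsf21 (-0.14) lower, none of them called.

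**Figure D4:**
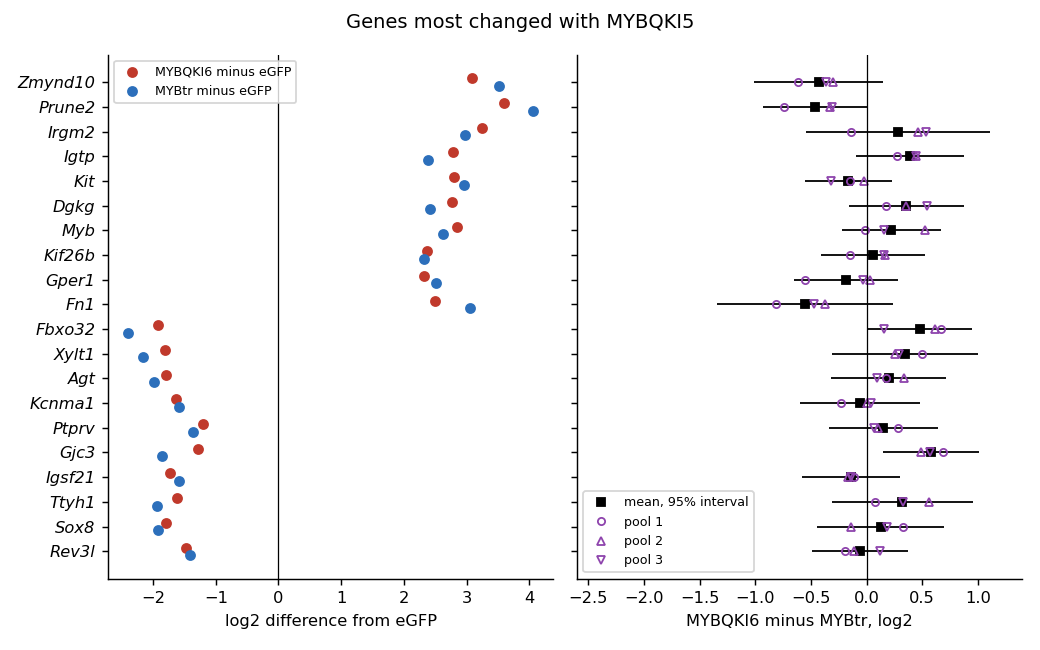
The 10 genes most raised and the 10 most lowered by MYBQKI5. Left, log2 difference from eGFP with MYBQKI6 (red) and MYBtr (blue), both on the same side of 0 for every gene; right, MYBQKI6 minus MYBtr with its 95% interval (black) and the 3 pools (open symbols), where the intervals of Fbxo32 and Gjc3 lie above 0 and the others include 0.

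Cell type markers and pathways were described by 25 lists, of which 406 memberships were measured and 0 members were called between the constructs (0% of all genes). Over all genes, 3.14% were higher and 3.08% lower at an unadjusted p under 0.05. Astrocyte markers stood furthest from 0. Of 17, 14 were higher and 3 lower with MYBQKI6, 4 of the 14 at an unadjusted p under 0.05 (3.14% of all genes), with a median difference of 0.30 beside 0.002 for all genes and pool medians of 0.33, 0.20 and 0.17. Sox9, a factor of the glial fate, was at 10.00, 9.76 and 10.06 with MYBQKI6, against 9.57, 9.36 and 9.72 with MYBtr, with an eGFP mean of 10.06. The MYBQKI6 arrays were at the eGFP level and above all MYBtr arrays (difference 0.39, 95% interval 0.10 to 0.68, adjusted p = 0.67). Glul, glutamine synthetase, was at 8.80, 8.83 and 8.94 with MYBQKI6, against 8.20, 8.57 and 8.59 with MYBtr (0.41, adjusted p = 0.75; 0.10 by its brightest probe set). Sparcl1 (0.57, but 0.09 in pool 3), a secreted matrix protein, and S100b (0.46), a calcium-binding protein, also had groups that did not overlap. In all, 6 of the 17 were higher without overlap, where 7% of all genes did not overlap in either direction. The mean of the list per array did overlap, at 6.88 to 7.29 with MYBQKI6 and 6.59 to 7.125 with MYBtr.

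Further astrocyte markers with a gap of this size were Hepacam (0.37), Aldoc (0.37), Aqp4 (0.35), Ttyh1 (0.32), Clu (0.30) and Apoe (0.27), none of them called. In all, 10 of the 17 were higher with MYBQKI6 in each pool. Gfap, the astrocyte filament, was at 4.87, 4.30 and 4.83 with MYBQKI6, against 4.59, 4.52 and 4.66 with MYBtr (difference 0.08). Slc1a2 (-0.13), Aldh1l1 (-0.08) and Gja1 (-0.04) were the 3 that were lower. Against eGFP the list had a median of -0.12 with MYBQKI6 and -0.62 with MYBtr, with 5 and 8 members called, where 4.43% and 5.99% of all genes were. These values share the eGFP arrays and do not test the difference. In these bulk samples, fewer cells of a type and less RNA per cell cannot be told apart.

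Lists of other lineages had smaller median differences, though some also held members at an unadjusted p under 0.05. Oligodendrocyte precursor genes had a median difference of 0.04 (8 of 13 higher). Against eGFP their medians were -0.54 with MYBQKI6 and -0.58 with MYBtr. With each, 7 were called, where 4.43% and 5.99% of all genes were. Olig1, a factor of this lineage, was at 9.44, 10.09 and 10.75 with MYBQKI6, against 9.06, 9.82 and 10.64 with MYBtr, and at 11.13 with eGFP. MYBQKI6 was higher within each pool, by less than the pools differed (0.25, adjusted p = 0.92). Neural stem cell genes had a median of 0.07 (10 of 16 higher). At an unadjusted p under 0.05, 3 were higher (3.14% of all genes) and 1 lower (3.08% of all genes). These were Fut4 (0.42), which makes the SSEA-1 sugar, Sox9 (0.39), Sox1 (0.30) and Pax6 (-0.26), a factor of cortical progenitors, none called. Medians were 0.10 for 16 neuronal genes, 0.07 for 13 myelin genes and 0.01 for 14 vascular and fibroblast genes. Of 12 microglia and immune genes, 10 were higher with MYBQKI6, with a median of 0.14 and pool medians of 0.11, 0.13 and 0.13. Of the 10, 3 were at an unadjusted p under 0.05 (3.14% of all genes). These were Csf1r, Tyrobp (0.37, but -0.585 by its brightest probe set) and C1qa (0.33, and 0.09 by its brightest probe set). The means of this list per array, given above, did not overlap between the constructs. Those of motile cilia genes did not overlap either, and were lower with MYBQKI6 (4.54 to 4.66) than with MYBtr (4.67 to 4.72). Csf1r, the receptor that microglia need, was at 4.53, 4.55 and 4.52 with MYBQKI6, against 4.33, 3.92 and 3.86 with MYBtr (0.50, adjusted p = 0.54). Itgam, another defining marker, was at 3.72, 3.65 and 3.87 with MYBQKI6, against 3.84, 3.68 and 3.76 with MYBtr, under the 25th percentile on average in both.

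Interferon response genes were above eGFP with both constructs, by a median of 1.23 with MYBQKI6 and 0.99 with MYBtr, with 7 and 5 of 19 called, where 4.43% and 5.99% of all genes were. Between constructs 17 of 19 were higher with MYBQKI6, at a median of 0.24, but the pools disagreed: pool 1 had a median of -0.17, pools 2 and 3 of 0.30 and 0.41. Cxcl10, a chemokine, was at 8.85, 9.94 and 6.94 with MYBQKI6, against 8.51, 9.21 and 6.34 with MYBtr (0.56, 95% interval -0.24 to 1.36, adjusted p = 0.88). The gap between pools exceeded the gap between constructs. Psmb8, a subunit of the immunoproteasome, had the smallest p of the list and was at 5.67, 5.51 and 5.09 with MYBQKI6, against 5.10, 4.80 and 4.92 with MYBtr (0.48, adjusted p = 0.54).

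Genes of G2 and M phase ran the other way. With MYBQKI6, 16 of 17 were lower, at a median of -0.21 and an unadjusted p under 0.05 in 0 of them. The pool medians were -0.01, -0.51 and -0.17, so that pool 2 alone had a wide gap. Mki67, the proliferation antigen, was at 4.66, 6.78 and 9.16 with MYBQKI6, against 4.62, 7.48 and 9.10 with MYBtr. Its level followed the pool, and the constructs were level in pools 1 and 3. Birc5, survivin, was at 3.84, 4.89 and 6.81 with MYBQKI6, against 4.14, 5.63 and 7.09 with MYBtr (-0.44, 95% interval -0.90 to 0.02, adjusted p = 0.81). S phase genes had a median of -0.07, with 13 of 18 lower, and Gins2, of the replicative helicase, was at 6.24, 6.54 and 7.19 with MYBQKI6, against 7.12, 6.86 and 7.19 with MYBtr. Neither list had a member called against eGFP with either construct.

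Lists built on what MYB and QKI are known to do had medians near that of all genes. Of 18 described MYB targets, 8 were higher and 10 lower with MYBQKI6 (median -0.05), and 7 were called against eGFP with each construct. Of all genes, 4.43% were called with MYBQKI6 and 5.99% with MYBtr. Ada, adenosine deaminase, was at 6.47, 6.18 and 6.03 with MYBQKI6, against 5.92, 5.83 and 5.77 with MYBtr, and at 5.07 with eGFP. It was called over eGFP with MYBQKI6 (1.16) and MYBtr (0.77), with no overlap between the constructs, and the difference of 0.39 (95% interval 0.06 to 0.72) had an adjusted p of 0.75 and was 0.13 by the brightest probe set. Bcl2, the survival gene, and Myc were level: Bcl2 differed by 0.01 and Myc by -0.004. Of 16 described Qk target RNAs, 10 were higher and 6 lower (median 0.04), and their differences spanned -0.19 to 0.31. Add3, an adducin of the membrane skeleton, was at 9.21, 9.45 and 8.84 with MYBQKI6, against 8.93, 9.10 and 8.70 with MYBtr, and Cdkn1b, the p27 inhibitor, differed by -0.07. Probe sets averaged over a gene do not read splicing.

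The 25 splicing factors had a median of 0.01, with 13 higher and 12 lower, and Ptbp2, a neuronal splicing repressor, had the widest gap at 0.34 (adjusted p = 0.87). The 6 STAR family genes had a median of -0.003 and the 12 MYB family and partner genes of 0.002. Motile cilia genes had a median of 0.01, and 3 of 16 were lower at an unadjusted p under 0.05, as were 3.08% of all genes. The means of this list per array, given above, were lower with MYBQKI6 without overlap. Rsph1, of the radial spoke, was at 5.24, 5.99 and 5.46 with MYBQKI6, against 5.77, 6.40 and 6.06 with MYBtr, and at 4.68 with eGFP (-0.51, adjusted p = 0.75). Ccdc39 (-0.45), a ruler of the axoneme, was likewise called over eGFP with both constructs. Rsph4a, another radial spoke gene, was dimmer, with a difference of -0.38 that was 0.30 by its brightest probe set.

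Signalling lists held single genes with a gap. Fos, an immediate early gene, was at 6.88, 6.83 and 7.08 with MYBQKI6, against 6.27, 6.18 and 6.47 with MYBtr, and at 8.17 with eGFP. It was called below eGFP with both, and the gap of 0.62 without overlap (95% interval 0.01 to 1.24) had an adjusted p of 0.80, in a list of 23 with a median of 0.05. Fzd1, a Wnt receptor, was at 6.92, 6.86 and 6.85 with MYBQKI6, against 7.37, 7.18 and 7.18 with MYBtr, and at 6.83 with eGFP (-0.37, adjusted p = 0.65). Wif1 (-0.52), a secreted Wnt inhibitor, and Dtx4 (-0.44), a Notch-linked ubiquitin ligase, were also lower with MYBQKI6 in each pool. Of the 21 Wnt genes, Rnf43 (0.57, described above) and Wnt7a (0.34, and 0.07 by its brightest probe set) were higher in each pool. At an unadjusted p under 0.05, 2 of the 21 were higher (3.14% of all genes) and 2 lower (3.08% of all genes). Medians of the Wnt and Notch lists were 0.02 and 0.03. The remaining medians were -0.09 for 26 matrix and adhesion genes, 0.05 for 13 p53 targets, 0.02 for 14 Bcl2 family genes, -0.01 for 15 ion channel genes, -0.03 for 13 cholesterol synthesis genes and -0.04 for 17 stress response genes.

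**Figure D5:**
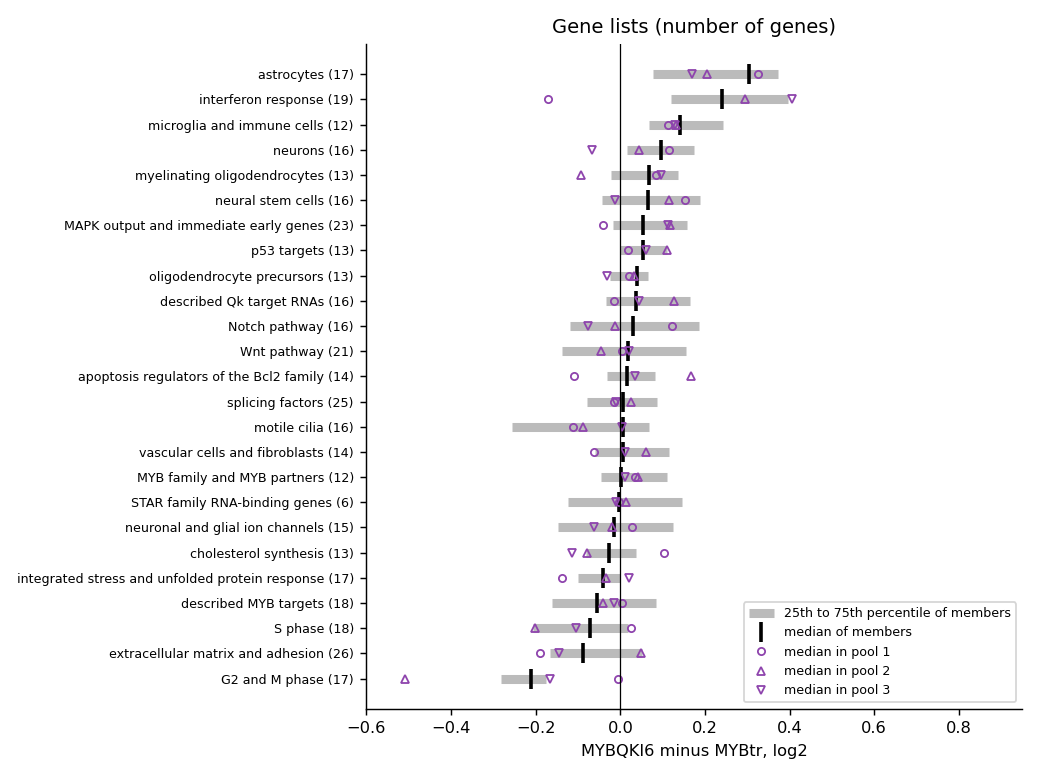
MYBQKI6 minus MYBtr (log2) over the members of 25 gene lists, with the number of genes in brackets; black bars are medians, grey bars run from the 25th to the 75th percentile of members, and open symbols are medians within pools 1 to 3. Astrocyte genes are highest at 0.30 and G2 and M phase genes lowest at -0.21, while the pools of the interferon list lie on both sides of 0.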

How the data were processed

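RNA from neural stem cells was biotin-labelled and read on Affymetrix arrays, per the labels. The deposited table holds log2 values of the authors for 269751 probe sets. How they were normalized is not given in the sources used here. The 18 arrays of the pool set were used, and the 8 of the suppression set, whose medians lie lower (5.39 to 5.51), were not used. A gene's value was the mean over probe sets that name it alone: 233753 probe sets name 1 gene, 5106 several and 30892 none. This gave 23102 genes with a median of 8 probe sets. Of the file's symbols 20875 were current, 2247 were updated and 30 were unmatched in RefSeq.

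Within a pool, the 2 eGFP arrays were averaged, and the 15 columns were fitted with limma 3.58.1 (R 4.3.3, data.table version 1.17.8) by group, with pool as a block, because the comparison is paired by pool. Same-pool MYBQKI6 and MYBtr arrays had deviations from group means that correlated by 0.485 to 0.675 (3 pairs), against -0.538 to -0.13 for 6 other pairs. A gene was called where its p, adjusted by Benjamini and Hochberg over all genes, was under 0.05, and no dim gene was left out. The number of arrays limits the precision. The repeats of eGFP in a pool had an SD of difference of 0.253 to 0.271. The fit was also run on simulated data, with independent noise for each gene and changes of 1 log2 unit or more. Smaller changes, the size of most differences here, were not simulated, so that run does not speak to finding them.

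Named genes were up to 15 called each way, filled to 10 by smallest p where fewer passed, leaving out predicted, clone and small RNA names, with Myb, Qk and 7 MYB-responsive genes, up to 4 members of each list by smallest p, and the 10 genes most raised and most lowered by MYBQKI5. Further list members are named as examples, chosen after their values were seen. Alternatives changed the block, the arrays fitted, the gene summary, the filter, the normalization and the variance model, and left out arrays. The members and lists were chosen with earlier results of these data known. Promoters came from a RefSeq table, taking the most upstream one listed. Figures were drawn with matplotlib 3.10.9 (Python 3.11.15).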

Additional observations from a re-analysis of the deposited data

How the results depend on the processing

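Genes called between MYBQKI6 and MYBtr numbered 0 under all alternatives run for genes, and probe sets called numbered 0 under the 5 run for probe sets (no block, a filter on dim signal and each pool left out). At an unadjusted p under 0.05 the genes numbered 605 with no replicate block (smallest adjusted p = 1) and 1884 with the 6 arrays alone. With all arrays kept, the smallest adjusted p was 0.096 for genes (trend and robust variances) and 0.053 for probe sets (no replicate block). With arrays or pools left out it was 0.098 to 0.78 for genes, and for probe sets 0.49 to 0.82. No fit gave a call to any named gene.

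The median difference of the genes lowered by MYBQKI5 was -0.021 with no replicate block (14 genes), 0.011 with 18 arrays kept apart, 0.003 with the median of probe sets, 0.015 with the brightest probe set and 0.015 with trend and robust variances. Leaving out arrays moved it from -0.071 to 0.109, and the median of the raised genes from -0.119 to 0.085. With no replicate block the median of the raised genes was -0.041 (32 genes). The medians of 3 lists were recomputed after they had been seen, and kept their sign throughout: with arrays left out, astrocyte genes ran from 0.133 to 0.393, G2 and M phase genes from -0.348 to -0.074 and interferon genes from 0.074 to 0.422.

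The gene summary moved single genes most: of 134 named genes, 55 differences moved by over 1.5 times with the median of probe sets and 79 with the brightest probe set. Signs of uncalled differences turned with the gene summary, and the cause was not tested. With the median of probe sets these were Iltifb (0), Khdrbs3 (0.137), Khdrbs1 (0.105), Gpr17 (-0.062), Ptprc (-0.124), Acta2 (-0.016), Pdgfrb (-0.023) and Ptprv (-0.006). With the brightest probe set they were Tbx22 (0.012), Myb (-0.003), Kit (0.039), Khdrbs1 (0.018), Gli1 (0.092), Gpr17 (-0.022), Cnp (-0.024), Snap25 (0.674), Tyrobp (-0.585), Ptprc (-0.004), Fosl1 (-0.273), Rsph4a (0.303), Bmf (-0.021), Kcnk2 (-0.263), Agt (-0.042), Kcnma1 (0.19), Ptprv (-0.01) and Igsf21 (0.326). With arrays left out the sign turned in 16 genes: Myb (-0.058 to 0.434), Kit (-0.305 to 0.065), Sox8 (-0.179 to 0.377), Neurod1 (-0.058 to 0.484), Pola1 (-0.004 to 0.309), Fas (-0.028 to 0.248), Fosl1 (-0.112 to 0.966), Chac1 (-0.398 to 0.041), Bcl2a1b (-0.095 to 0.43 over pools, -0.035 to 0.418 over arrays), Irgm2 (-0.184 to 0.597), Kif26b (-0.182 to 0.236), Gper1 (-0.349 to 0.002), Agt (-0.122 to 0.436), Kcnma1 (-0.266 to 0.101; 0.022 without pool 1), Igsf21 (-0.328 to 0.043) and Rev3l (-0.291 to 0.066; 0.007 without pool 1).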
